A study of Mus musculus with 4 samples.

Results

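The keratins Krt5, Krt14, Krt15, Krt17, Krt8, Krt18, Krt7 and Krt19 and the transcription factor Trp63 (p63) were followed through the cell types of the mouse main olfactory epithelium. These 9 genes, 8 of the 54 keratin genes and Trp63, were taken by name out of 55511 measured genes, and all 9 had UMIs. The tissue came from 4 male C57BL/6 mice (C57BL/6J in the study's methods) aged 8 weeks, at rest, which formed 1 group with 1 single-cell library per mouse. Live nucleated cells had been sorted after dissociation, and the study set out to describe olfactory sensory neurons (OSNs). Cells were counted by the 10x Genomics 3′ method, in which the copies of a transcript are counted once by their unique molecular identifier (UMI). The mouse was the replicate (n = 4) in each mean ± SD and each test, and shares pooled over mice count cells.

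Keratins are the intermediate filament proteins of epithelia, and a filament is built from pairs of a type I and a type II chain. Krt5 and Krt14 pair in the basal, proliferative layer of stratified epithelia, where the filaments are anchored at hemidesmosomes and desmosomes and where p63 maintains the basal state. Krt8 and Krt18 pair in simple epithelia, and they are the usual keratins of the apical supporting cells of the olfactory epithelium. In that tissue the Krt5-positive, p63-positive horizontal basal cells (HBCs) are a largely quiescent reserve of stem cells that lie on the basal lamina, while globose basal cells (GBCs) renew the neurons from day to day.

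The deposited annotation gives 10 types. It holds 2 clusters of HBCs, HBC1 with 210 cells and HBC2 with 544, and 336 supporting (sustentacular, Sus) cells. The others are 124 and 1768 cells of the microvillar types Mv1 and Mv2, 202 GBCs, 284 immediate neuronal precursors (INP), 866 and 1006 immature OSNs (iOSN1, iOSN2) and 10519 mature OSNs (mOSN). Every mouse contributed to each type, from 29 to 74 HBC1, 61 to 225 HBC2 and 67 to 114 Sus cells. The libraries held 23157467 to 32382702 UMIs. The level of a gene is given here as UMIs per 10000 UMIs of that type in that mouse. As 3′ counts are not per length, levels were compared within a gene across types and not between genes.

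The labels were compared with marker genes. HBC1 carried the 7 HBC markers (Itga6, Itgb4, Col17a1, Icam1, Egfr, Cav1, Cxcl14) at a summed level of 13.7 ± 0.889 (SD, n = 4), HBC2 at 6.99 ± 0.712 and Sus at 0.431 ± 0.0932. In HBC2 the chemokine Cxcl14 was at 0.00190 against 0.524 in HBC1. HBC2 also carried genes that are not of HBCs, with the secretory gene Bpifa1 at 165 ± 120.0, the antimicrobial lectin Reg3g at 37.9 ± 21.6 and the sustentacular enzyme Cyp2g1 at 25.7 ± 13.3. Such genes were not limited to HBC2. The 4 respiratory markers (Foxj1, Reg3g, Bpifa1, Scgb1c1) summed to 231 ± 145 in HBC2, 358 ± 22.8 in Sus and 55.4 ± 8.40 in HBC1. These sums did not rest alike on Bpifa1. At 5 or more Bpifa1 UMIs there were 114 of 544 HBC2 cells, 0 of 336 Sus cells and 0 of 210 HBC1 cells. The 3 fibroblast markers (Col1a1, Dcn, Lum) summed to 7.83 ± 0.638 in HBC2, 0.496 ± 0.0559 in Sus and 1.46 ± 0.453 in HBC1. Col1a1 had 3 UMIs or fewer in each of these types. Lum also had 3 or fewer in Sus and HBC1, so the sums there rested almost wholly on Dcn. Sus cells carried Cyp2g1 at 71.4 ± 8.73 and also gland genes such as Bpifb3 at 27.2 ± 44.5, whereas Cbr2, another gene of the sustentacular list, was at 1.69 in Sus, 52.4 in HBC1 and 70.8 in HBC2. The 5 gland markers summed to 116 in the Sus cells of mouse 1 and to 28.5 to 31.0 in those of the other mice. RNA of mature OSNs was present in each, with the 4 markers Omp, Adcy3, Cnga2 and Gng13 at a summed 3.34 to 13.7 in HBC1, 6.35 to 16.7 in HBC2 and 4.86 to 10.9 in Sus across mice.

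The type I members Krt15, Krt19, Krt14 and Krt17 lie within 1 cluster on chromosome 11, and the type II members Krt7, Krt5 and Krt8 lie on chromosome 15, where Krt18, a type I gene, sits 23698 bases from Krt8. In GRCm38 (GENCODE M21), Krt5 spans 101707070 to 101712898 and Krt8 101996698 to 102004482 on the minus strand of chromosome 15, and Krt18 spans 102028180 to 102032027 on the plus strand. Krt14 spans 100203162 to 100207548 on the minus strand of chromosome 11, and Trp63 25683763 to 25892102 on the plus strand of chromosome 16. The last 500 bases of the Krt14 and Krt17 transcripts share a stretch of 186 bases with 95.7% identity, so a part of the UMIs of each could be lost or given to the other and their values are uncertain to that degree. No such stretch, 90 or more bases at 95% or more, linked any other member to another gene. Noncoding genes overlap Krt5, Krt8, Krt7 and Trp63 on the opposite strand, and a processed pseudogene, Gm27005, lies within Trp63 on the same strand.

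Krt5 with Krt14 and Krt8 with Krt18 are the classical filament partners, and the sequences before their starts are shown for that reason. RefSeq promoter windows (GRCm38.p6) were at hand for 5 of the 9 members, these 4 and Krt7, whose window is counted but not shown. Each of the 4 is given 5′ to 3′ on the gene's strand for up to 250 bases before the RefSeq start, without bases that GENCODE counts as an exon of that gene. Capitals mark 3 motifs searched on both strands, which are ATAAA (the core of a TATA box), GGGCGG (a GC box) and CATG (the core of a p53 family half-site).
Krt5 (minus strand, chr15:101712906-101713155): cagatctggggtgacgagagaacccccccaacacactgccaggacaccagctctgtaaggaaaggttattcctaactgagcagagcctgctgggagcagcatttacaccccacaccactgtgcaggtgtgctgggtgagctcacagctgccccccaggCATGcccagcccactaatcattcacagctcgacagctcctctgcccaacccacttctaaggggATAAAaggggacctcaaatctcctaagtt
Krt14 (minus strand, chr11:100206031-100206280): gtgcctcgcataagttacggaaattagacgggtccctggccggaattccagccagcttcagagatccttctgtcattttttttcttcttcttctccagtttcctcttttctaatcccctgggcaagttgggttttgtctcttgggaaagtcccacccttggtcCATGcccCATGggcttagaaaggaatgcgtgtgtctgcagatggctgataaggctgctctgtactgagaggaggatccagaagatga
Krt8 (minus strand, chr15:102004483-102004592): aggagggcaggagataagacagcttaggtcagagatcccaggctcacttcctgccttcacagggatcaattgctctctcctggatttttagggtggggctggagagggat
Krt18 (plus strand, chr15:102027966-102028179): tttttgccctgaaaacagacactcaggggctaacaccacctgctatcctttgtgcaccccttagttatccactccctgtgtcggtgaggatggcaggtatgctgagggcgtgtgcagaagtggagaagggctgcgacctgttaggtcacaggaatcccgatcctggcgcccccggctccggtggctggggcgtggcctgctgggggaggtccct
Over the full 250 bases, Krt5 held 1 ATAAA and 1 CATG, Krt14 held 2 CATG, Krt8 and Krt18 held none of the motifs, and Krt7 held 1 ATAAA, 4 GGGCGG and 1 CATG. All the Krt7 matches lay past the start of a GENCODE exon of that gene. Of 32851 RefSeq promoters, 37.3% held ATAAA, 32.7% GGGCGG and 53.9% CATG in the same 250 bases. A match is a run of letters and not a binding site. The Krt14 and Krt7 windows lie inside the spans that GENCODE gives these genes, before the starts that RefSeq gives.

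Krt5, the type II keratin of basal cells, was high in the HBC clusters and near 0 in the other 8 types. In HBC1 it stood at 24.7, 20.4, 23.1 and 17.1 UMIs per 10000 in mice 1 to 4, and in HBC2 at 7.75, 8.10, 7.34 and 5.94. Every HBC1 value lay above every HBC2 value. Sus cells gave 1 Krt5 UMI among 2179026, and no type outside the HBC clusters had a mean above 0.04996, the value of GBCs, which rested on mouse 4 at 0.172 (the other mice gave at most 0.0283). Each cell was then thinned to 2000 UMIs, which evens out depth. After this, 97.6% ± 2.64 of HBC1 and 63.7% ± 2.15 of HBC2 cells had a Krt5 UMI. In mature OSNs, taken as a background, the share was 0.139% ± 0.107. Over all UMIs of each cell, 208 of 210 HBC1 and 396 of 544 HBC2 cells had a Krt5 UMI. The median depth was 4619 UMIs in HBC1 and 7186.5 in HBC2.

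The type I partner Krt14 followed the same order. It stood at 20.3, 14.4, 19.0 and 14.3 in HBC1 and at 8.33, 11.1, 5.84 and 8.64 in HBC2, with 2 UMIs in all Sus cells. Krt17, a type I keratin best known from skin appendages and from injured epithelia, stood at 27.6, 19.7, 22.6 and 19.4 in HBC1 and at 6.36, 8.62, 6.84 and 5.47 in HBC2. The HBC1 and HBC2 values of both genes did not overlap when all HBC2 cells were counted. Without 90 HBC2 cells high in Cyp2g1 (described below), HBC2 stood at 10.1, 18.1, 7.18 and 12.8 for Krt14, which overlapped HBC1. Krt17 in HBC2 was then at most 14.1, still below HBC1. The share of all genes with such separate values was not counted, here or for the other members. Krt17 had a low level of 0.0822 ± 0.118 in Sus, of which mouse 2 gave the most, at 0.256, and 4 of 336 Sus cells held a Krt17 UMI.

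Krt15, a type I keratin of basal cells and of hair follicle stem cells, had the opposite order. Its level was 0.684, 2.38, 0.443 and 1.32 in HBC1, and 15.0, 2.48, 4.38 and 5.51 in HBC2. HBC2 was the higher in each of the 4 mice, but the highest HBC1 value, in mouse 2, came close to the HBC2 value of that mouse. Mouse 1 set much of the mean, since the HBC2 mean was 6.85 with it and 4.12 without it. Krt15 had at least 1 UMI in 12.3% ± 2.88 of thinned HBC1 cells and in 33.1% ± 12.2 of HBC2 cells.

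Krt8 and Krt18, the simple epithelial pair, were highest in Sus and lower in the basal cells. Krt8 stood at 25.9, 27.0, 28.5 and 28.8 in Sus, at 6.66, 5.95, 5.52 and 5.78 in HBC2 and at 3.57, 2.88, 3.04 and 2.68 in HBC1. Krt18 stood at 46.5, 45.6, 46.4 and 49.4 in Sus, at 13.9, 14.5, 15.5 and 14.5 in HBC2 and at 9.27, 5.98, 8.73 and 9.98 in HBC1. For both genes the values of these 3 types did not overlap when all HBC2 cells were counted. Without the 90 HBC2 cells high in Cyp2g1, HBC2 stood at 5.68, 3.05, 4.31 and 4.64 for Krt8, which overlapped HBC1. Krt18 in HBC2 was then 11.8, 11.3, 13.2 and 12.3, still above HBC1. The microvillar types came between Sus and HBC2. Krt8 stood at 16.2 ± 3.98 in Mv1 and 12.6 ± 0.830 in Mv2, and Krt18 at 28.4 ± 5.22 and 24.0 ± 2.30. The difference between Mv1 and Mv2 was under the larger SD for each gene. The Sus level was 9.06-fold that of HBC1 for Krt8 and 5.53-fold for Krt18. In mature OSNs the pair was at 0.0249 and 0.0453.

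Krt7, the type II keratin of many ducts, had its own pattern, since it was highest in neither basal nor Sus cells but in Mv2. There it stood at 6.25, 6.19, 5.57 and 6.09, a mean that was 5.51-fold the HBC2 level of 1.09 ± 0.226. HBC1 followed at 0.809 ± 0.334, and its difference from HBC2 was smaller than the SD of HBC1. Krt19, the smallest type I keratin, which lacks most of the tail domain, was the member that HBC1 and HBC2 shared most evenly when all HBC2 cells were counted. It stood at 6.89, 6.13, 6.07 and 6.26 in HBC1 and at 10.2, 4.87, 6.24 and 6.13 in HBC2, and at 0.295 ± 0.190 in Sus. The ranges of HBC1 and HBC2 overlapped, with HBC2 the higher in mice 1 and 3 and the lower in mice 2 and 4.

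Trp63 stood at 7.14, 6.56, 8.77 and 5.70 in HBC1 and at 1.33, 2.26, 1.93 and 1.49 in HBC2. The groups did not overlap, and the mean ratio was 4.02. No Trp63 UMI was seen in 336 Sus cells, and with 3 UMIs as the limit of what 0 allows over all Sus cells, HBC1 was at least 511-fold and HBC2 at least 127-fold higher. After thinning, 66.3% ± 16.3 of HBC1 and 31.1% ± 5.68 of HBC2 cells had a Trp63 UMI, and 0 of 332 Sus cells did, which allows a share of up to 0.904%. In HBC1 the share ran from 42.9% in mouse 2 to 80.4% in mouse 3. The 3′ counts cannot separate the p63 isoforms with and without the transactivation domain.

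**Figure D1:**
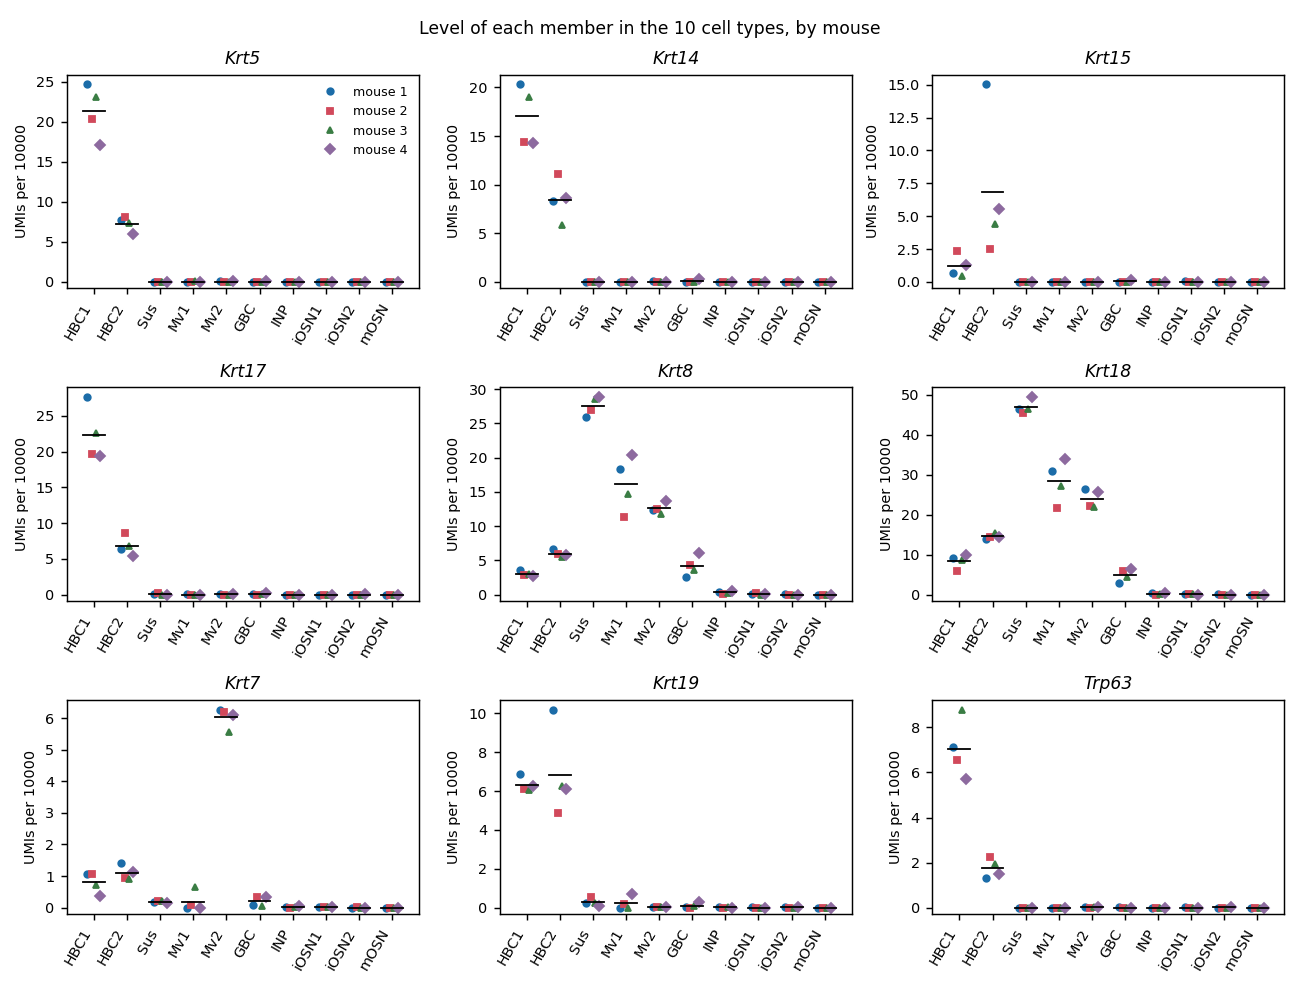
Level of each of the 9 genes (UMIs per 10000, linear axes from 0 that differ between panels) in the 10 cell types, with 1 point per mouse and a line at the mean of 4 mice. Krt5, Krt14, Krt17 and Trp63 peak in HBC1, Krt15 in HBC2 with mouse 1 far above the rest, Krt8 and Krt18 in Sus, Krt7 in Mv2 at 6.03, and Krt19 lies at 6.34 and 6.86 in HBC1 and HBC2.

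GBCs were the other type with Krt8 and Krt18, at 4.16 ± 1.51 and 4.92 ± 1.58, and both fell to 0.350 and 0.317 in the INPs, the next step towards neurons. Krt5 UMIs numbered 14 in all GBCs, of which 11 came from 1 cell, and Trp63 UMIs numbered 1. Among GBCs thinned to 2000 UMIs, 80 of 196 had Krt8 or Krt18 without Krt5, and 115 had neither. The 80 cells carried Foxi1 at 4.03 ± 2.18 and Ascl3 at 4.88 ± 3.52, transcription factors of ionocyte-like microvillar cells, against 0.442 ± 0.321 and 0.165 ± 0.329 in the 115. The proliferation genes Mki67 and Top2a were at 1.30 ± 0.915 and 3.13 ± 1.27 in the 80 cells and at 4.87 ± 0.608 and 9.45 ± 0.954 in the 115. These values were compared after they had been seen and were given no test.

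Of the other keratins, Krt23 was the one that reached 1 UMI per 10000 in any type. It stood at 5.77 ± 0.247 in Sus, 1.54 ± 0.167 in HBC2 and 1.04 ± 0.563 in HBC1. The HBC1 and HBC2 levels of Krt23 did not pass the test of a difference (log2 difference −0.53 ± 0.22, adjusted p = 0.0797 by edgeR with Benjamini-Hochberg adjustment).

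The genes whose pattern was most like each member's were ranked by Pearson's r of log2 levels over the 10 type means, among 7169 genes. The type means share libraries and depth, so r is a description. Krt5 was most like Col17a1 (r = 0.999), the hemidesmosomal collagen, then Dlk2 and Krt14 (both r = 0.998). Krt14 was most like Krt5, then Pthlh and Col17a1, and Krt17 most like Mir205hg, Krt14 and Lamb3. Trp63 was most like Dsc3, Fat2 and Lamb3 (r = 0.999 each), a desmosomal cadherin, a giant cadherin and a laminin chain. Krt8 was most like Krt18 (r = 0.993), and Krt18 most like Cdh1 (r = 0.996), which encodes E-cadherin. Krt15 was most like Serpina3n, Cpm and Anxa8, all highest in HBC2, Krt7 most like Cav2, Tmco4 and Trib1, all highest in Mv2, and Krt19 most like Ajuba, Adm and Icam1, with r of 0.978 to 0.979.

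HBC1 and HBC2 were compared on UMI sums per mouse with edgeR's quasi-likelihood test, fitted over all genes kept, with the mouse as a block. The authors had drawn these clusters from the same counts, so the p measures how steady a difference was over mice and is no independent evidence for the types. Of 7564 genes tested, 25.3% passed an adjusted p of 0.05, 12.9% higher and 12.4% lower in HBC1. Of the 9 members, 7 passed. Krt5, Krt14, Krt17 and Trp63 were higher in HBC1, and Krt15, Krt8 and Krt18 were lower. The log2 difference was 1.49 ± 0.11 (SE) for Krt5, 0.98 ± 0.15 for Krt14, 1.67 ± 0.18 for Krt17 and 2.00 ± 0.14 for Trp63, with edgeR adjusted p of 7.02e-10, 2.62e-05, 3.00e-07 and 2.49e-09. It was −2.75 ± 0.38 for Krt15, −1.03 ± 0.12 for Krt8 and −0.85 ± 0.11 for Krt18 (edgeR adjusted p = 7.82e-06, 6.18e-07 and 6.02e-06). All 4 mice moved in the direction of the mean for these 7 genes. Krt7 at −0.54 ± 0.20 (edgeR adjusted p = 0.0549) and Krt19 at −0.17 ± 0.18 (edgeR adjusted p = 0.545) did not pass.

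A group of cells within HBC2 bore on these values. Of the 544 HBC2 cells, 90 had 5 or more UMIs of Cyp2g1, a cytochrome of sustentacular cells, 12 had 1 to 4, and 442 had none. The 90 cells were spread over the mice as 34, 15, 15 and 26. They held no Krt5 UMI at all, 1 Krt14, 2 Krt17 and 1 Trp63 UMI, and no Col17a1. Their Krt8 stood at 11.3, 10.5, 10.8 and 8.17 and their Krt18 at 24.0, 19.7, 25.8 and 19.1, above HBC2 as a whole and below Sus in each mouse. They also differed from the cells labelled Sus, since Cbr2 was at 77.7 ± 11.4 in them and 1.69 in Sus, and Bpifb3 at 0.00668 and 27.2 ± 44.5 (4.92 in Sus without mouse 1). By keratins and HBC markers these cells went against their label. The OSN markers Omp and Gng13 were at 9.02 ± 5.87 and 9.60 ± 5.27 in them, and the part of neuronal RNA was not tested. This split was chosen after the values were seen and was given no test of its own.

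Without the 90 cells, HBC2 stood at 10.1 ± 2.08 for Krt5, 12.0 ± 4.62 for Krt14, 9.56 ± 3.01 for Krt17 and 2.47 ± 0.872 for Trp63. The log2 difference between HBC1 and HBC2 became 0.93 for Krt5, 1.12 for Krt17 and 1.47 for Trp63, and these still passed (edgeR adjusted p = 1.31e-05, 0.000273 and 4.42e-06). For Krt14 it became 0.43 and no longer passed (edgeR adjusted p = 0.119). Krt7 at −1.01 and Krt19 at −0.69 now passed as lower in HBC1 (edgeR adjusted p = 0.000984 and 0.00515). Krt15, Krt8 and Krt18 stayed lower in HBC1, at −3.24, −0.72 and −0.68, so that 8 of 9 members passed in this form, in which 23.5% of 7324 genes passed, 11.3% higher and 12.2% lower in HBC1.

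**Figure D2:**
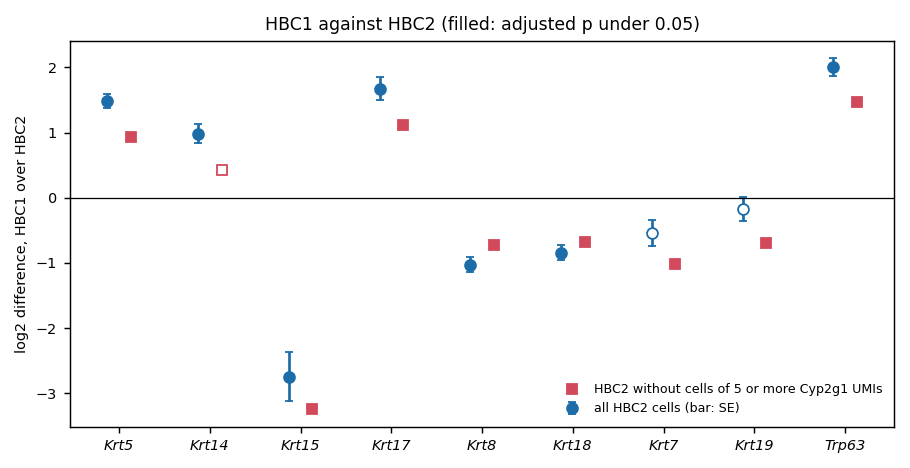
Log2 difference of each gene between HBC1 and HBC2 (positive values are higher in HBC1) from the edgeR fit on sums of 4 mice. Circles with bars (SE) use all HBC2 cells and squares leave out the 90 cells with 5 or more Cyp2g1 UMIs, and filled symbols have an adjusted p under 0.05. Krt14 goes from 0.98 to 0.43 and turns open, and Krt7 and Krt19 turn filled.

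Genes of the structures that hold keratin filaments were compared next, with all HBC2 cells and then without the 90 cells high in Cyp2g1. Of 11 genes of hemidesmosomes and basal adhesion, 8 were higher in HBC1 and none lower, where 12.9% of all genes were higher and 12.4% lower, with a median log2 difference of 0.95 against −0.02 over all genes. Without the 90 cells 5 of the 11 (Col17a1, Dst, Itgb4, Lama3 and Lamb3) were higher and none lower, and the median was 0.50. Lama3 (2.10 ± 0.28), Dst (1.78 ± 0.12), which encodes the plakin that ties keratins to hemidesmosomes, Lamb3 (1.61 ± 0.13) and Col17a1 (1.22 ± 0.14) had the largest differences on the log2 scale. Of 9 desmosome genes tested out of 10 (median 0.51), Dsc3 (1.80 ± 0.16), Pkp3 (1.37 ± 0.20), Dsp (1.33 ± 0.13) and Pkp1 were higher, and Pkp2 (−1.08 ± 0.32) was lower, whereas without the 90 cells Dsc3, Dsp and Pkp3 were higher and none lower (median 0.26). Of 9 p63 family and target genes tested out of 10, 4 were higher and 2 lower in HBC1, with a median log2 difference of 0.18. Without the 90 cells this became 3 and 3, and the median changed sign to −0.29. Trp53, Perp and Igfbp3 did not pass. Those that were higher included Fras1 (1.79 ± 0.25), Bmp7 (1.22 ± 0.31) and Jag2 (1.17 ± 0.14), and Sfn and Cdkn1a were lower (−0.65 ± 0.12 and −0.67 ± 0.19). Tight junction and apical polarity genes went the other way, with 6 of 10 lower in HBC1 and none higher (median −1.02), led by Cldn4 (−5.46 ± 0.55), Cldn7 (−3.26 ± 0.30) and Cldn3 (−2.96 ± 0.39). Without the 90 cells 5 of the 10 (Cdh1, Cldn3, Cldn4, Cldn7 and Epcam) were lower and none higher (median −0.68). Vim, Lmna and Lmnb1, the 3 of 12 other intermediate filament and lamin genes that were tested, did not pass (log2 differences from −0.13 to 0.41), and without the 90 cells 1 of the 3, Vim, was higher. Pkp1, Sfn, Cdkn1a and the genes named for the form without the 90 cells were named after their values were seen. These lists had been chosen with results of these data known, and the counts are descriptions.

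Against Sus, all 9 members passed in both HBC clusters, where 43.0% of the genes passed for HBC1 (23.3% higher and 19.8% lower than in Sus) and 39.3% for HBC2 (22.0% higher and 17.3% lower). In both, 7 members were higher, and Krt8 and Krt18 were lower. Their log2 difference was −3.26 ± 0.12 and −2.56 ± 0.12 in HBC1 and −2.24 ± 0.10 and −1.71 ± 0.11 in HBC2, with edgeR adjusted p from 2.66e-15 to 2.75e-11. Krt19 was 21.5-fold the Sus level in HBC1 and 23.2-fold in HBC2, Krt7 4.50-fold and 6.07-fold, and Krt17 272-fold and 83.0-fold, as ratios of means. Mouse 2 gave 16 of the 20 Krt17 UMIs in Sus, and without it these ratios were 959.7-fold and 257-fold. As only 4 of 336 Sus cells held a Krt17 UMI, the ratios of Krt17 rest on very few cells. No ratio is given for Krt5, Krt14 and Krt15, which had 1, 2 and 1 UMIs in Sus. In HBC2 against Sus, 10 of 11 hemidesmosome genes were higher and 9 of 10 tight junction genes were lower.

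Cells of the HBC clusters commonly carried basal and simple keratins together. In cells thinned to 2000 UMIs, Krt5 was detected with Krt8 or Krt18 in 83.6%, 67.9%, 82.4% and 77.6% of HBC1 cells of mice 1 to 4 and in 55.4%, 56.7%, 56.9% and 59.8% of HBC2 cells. Over the pooled cells of all mice this was 160 of 201 HBC1 cells (79.6%, exact binomial interval 73.4 to 84.9%) and 302 of 531 HBC2 cells (56.9%, 52.5 to 61.1%). In Sus it was 1 of 332 cells (0.301%, 0.00763 to 1.67%) and in mature OSNs 0 of 10150, which allows a share of up to 0.0296%. Intervals and limits cover counting error only, and HBC1 of mouse 2 lay below its pooled interval. As a background, Krt5 without a simple keratin was seen in 13 of the 10150 mature OSNs and Krt8 or Krt18 without Krt5 in 156.

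These joint shares were set largely by how often each gene was detected. In HBC1, with Krt5 in 97.6% and Krt8 or Krt18 in 79.3% of cells, the joint share could lie only between 77.0 and 79.3%, so the 77.8% ± 7.14 seen says nothing of whether detection was independent. In HBC2, with 63.7% and 92.3%, it could lie between 56.0 and 63.7%. It was 57.2% ± 1.89 against 58.8% ± 0.845 under independence, and below independence in 3 of 4 mice. Of the rest, 35.1% ± 1.84 of HBC2 cells had Krt8 or Krt18 without Krt5, and 6.54% ± 3.89 had Krt5 alone, whereas in HBC1 19.8% ± 8.24 had Krt5 alone and 1.51% ± 1.95 Krt8 or Krt18 alone. Without the 90 cells high in Cyp2g1, the joint share in HBC2 was 70.5% ± 6.64 against 71.1% ± 6.12 under independence, a smaller gap than with all cells and again below independence in 3 of 4 mice. Krt8 or Krt18 without Krt5 was then left in 94 of 441 cells. With all UMIs of each cell the joint share was 93.3% in HBC1 and 70.5% in HBC2, so it depended on depth. Krt5 alone was then left in 1, 2, 3 and 5 HBC1 cells and in 3, 3, 0 and 1 HBC2 cells of mice 1 to 4.

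**Figure D3:**
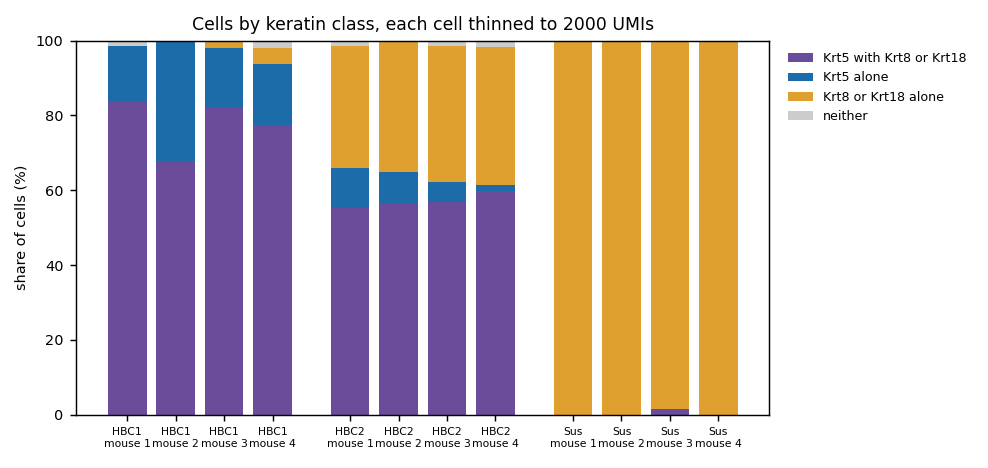
Share of cells (percent) in each keratin class for every mouse in HBC1, HBC2 and Sus, after thinning each cell to 2000 UMIs. The joint class holds 67.9 to 83.6% of HBC1 and 55.4 to 59.8% of HBC2 cells, while Sus is made up of Krt8 or Krt18 cells apart from 1 cell of mouse 3.

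Pairs of members could be read in HBC2, where Krt5 was not close to saturation. Krt5 and Krt14 were detected together in 52.0% ± 4.04 of HBC2 cells against 37.3% under independence, and Krt5 and Krt17 in 46.7% ± 8.00 against 33.8%, above independence in all 4 mice. Krt5 and Krt8 met in 30.6% ± 0.838 against 37.2%, below it in all 4 mice. These values include the 90 cells high in Cyp2g1, which held no Krt5. Without them the joint share of Krt5 and Krt14 was 64.3% ± 9.70 against 57.2% and that of Krt5 and Krt17 57.9% ± 13.7 against 52.0%, still above independence in all 4 mice but by less. For Krt5 and Krt8 it was 37.7% ± 3.44 against 39.6%, below independence in 3 of 4 mice and by less than the SD of that share. Krt14 with Krt8 (32.9% ± 4.21 against 36.5%) and Krt17 with Krt8 (30.5% ± 3.82 against 33.1%) stayed below independence in all 4 mice. So did Trp63 with Krt18 (28.1% ± 4.69 against 31.4%), each by less than the SD of the joint share. That SD is the spread of the share over mice and not of the gap within a mouse. Krt15 with Krt8 was above independence in 3 mice, and Krt19 with Krt18 in all 4 (60.8% ± 4.71 against 59.5%). These further pairs were picked after their values were seen. An exact sign-flip test over 4 mice cannot go below p = 0.125, so none was made.

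HBC2 cells also differed in Bpifa1, a secreted protein of airway surface and gland cells. With 5 or more UMIs as the limit, 114 HBC2 cells carried Bpifa1, 90 Cyp2g1, 340 neither and 0 both. Bpifa1 cells carried the basal keratins, with Krt5 at 5.30, 8.81, 4.49 and 7.88, Krt14 at 6.93 ± 2.58, Krt19 at 9.48 ± 2.55 and Trp63 at 1.58 ± 0.550. The 340 cells with neither gene stood at 11.5 ± 2.32 for Krt5, 14.0 ± 5.22 for Krt14, 8.97 ± 2.14 for Krt19 and 2.82 ± 0.991 for Trp63, and they carried most of the Krt15, 4052 of its 4278 HBC2 UMIs. Krt15 was at 24.6, 5.30, 7.08 and 10.2 in these cells, and at 2.30, 0.353, 1.30 and 3.72 in the Bpifa1 cells, lower in every mouse. Krt8 was at 3.95 ± 0.492 in the cells with neither gene and 5.52 ± 2.93 in the Bpifa1 cells. This split rests on genes seen to vary within HBC2 and is a description.

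**Figure D4:**
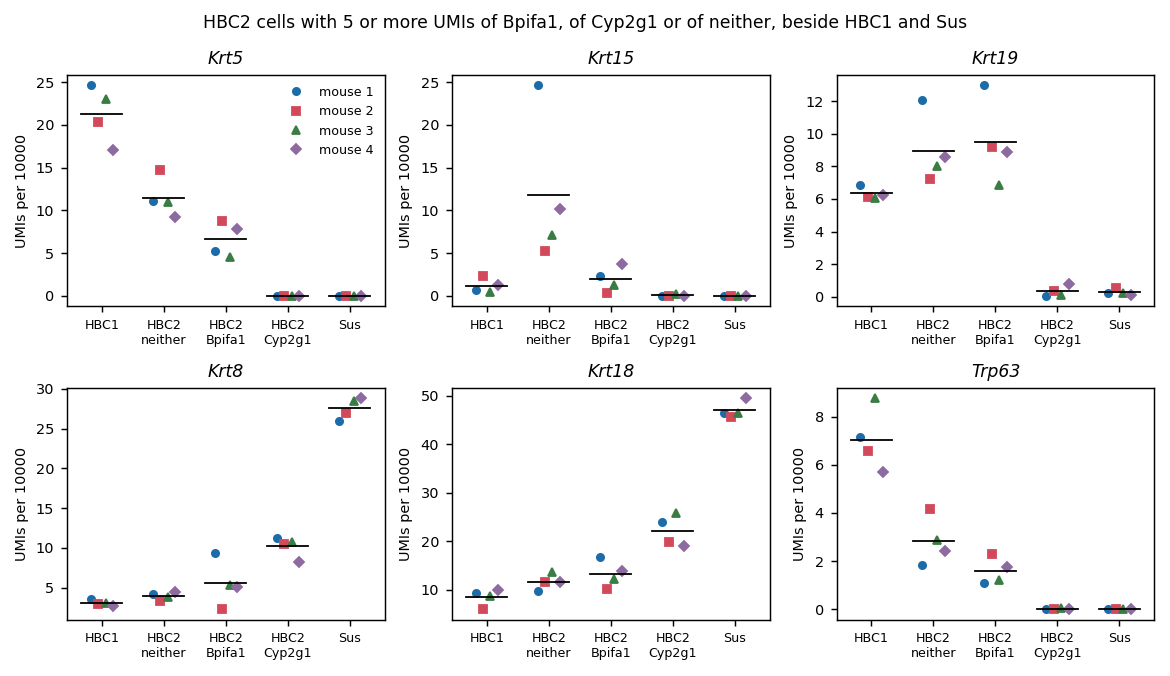
Level (UMIs per 10000, axes from near 0 that differ between panels) of 6 of the genes in HBC1, in HBC2 cells with neither gene, with 5 or more Bpifa1 UMIs or with 5 or more Cyp2g1 UMIs, and in Sus, with 1 point per mouse and a line at the mean. Krt5 goes from 21.3 in HBC1 through 11.5 and 6.62 to 0 in the Cyp2g1 cells, where Krt18 rises to 22.1 against 46.9 in Sus.

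HBC2 cells with Krt5 and a simple keratin at 2000 UMIs were then compared with HBC2 cells with Krt5 alone at that depth. The classes held 302 and 38 cells, the latter 24, 5, 7 and 2 in mice 1 to 4, with a median of 6945.5 and 7030.5 UMIs. When all UMIs were read, 32 of the 38 cells did carry Krt8 or Krt18, so the comparison is between cells with more and with less of the simple keratins rather than with and without them. Krt5, Krt8 and Krt18 were left out, as they made the classes. Of 2729 genes 0.806% passed, 4 higher (0.147%) and 18 lower (0.660%) in the joint class, and 161 had an unadjusted p under 0.05. Of the 6 other members tested, none passed in edgeR or in DESeq2. Krt17 came nearest, at 11.6 ± 2.79 in the joint class and 7.07 ± 1.82 with Krt5 alone (log2 difference 0.76 ± 0.24, edgeR adjusted p = 0.280), and it passed when mouse 1 was left out (1.08, edgeR adjusted p = 0.00979). Trp63 was at −0.50 ± 0.26 (edgeR adjusted p = 0.848). The differences of Krt14, Krt15, Krt7 and Krt19, from 0.05 to 0.42, had SEs from 0.24 to 0.36, so differences of that size were not detectable with these cells.

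The genes that did pass were of other kinds. Bpifa1 (5.13 ± 0.37), Cyp2a5 (2.04 ± 0.41), the keratin Krt23 (1.79 ± 0.41) and Reg3g (1.20 ± 0.28) were higher in the joint class on the log2 scale. Cells with 5 or more Bpifa1 UMIs numbered 71 of the 302 and 2 of the 38. With all cells the Bpifa1 level was 49.7 ± 23.6 in the joint class and 1.02 ± 1.17 with Krt5 alone. Without those cells it was 0.462 ± 0.199 and 0.378 ± 0.387. As the cells were removed by their Bpifa1 count, the fall to low levels was fixed by the removal. S100a5, Pcp4l1, Stoml3, Ckb and Nsg1, genes abundant in neurons, led the lower ones, from −3.76 ± 0.63 to −2.45 ± 0.51 (edgeR adjusted p from 0.000879 to 0.0176). With them the OSN marker Gng13 was at 1.67 ± 1.00 in the joint class and 11.9 ± 5.86 with Krt5 alone. Without the highest Scrublet scores 4 genes were called, all higher, and none of the lower calls was left (98 genes had an unadjusted p under 0.05 in edgeR), and with cells classed on all UMIs no gene was called (257 at an unadjusted p under 0.05). That last form held only 7 cells with Krt5 alone (3, 3, 0 and 1 in mice 1 to 4), too few for the absence of calls to show much. The part of neuronal RNA in these classes was not tested.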

How the data were processed

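Cells of the main olfactory epithelium of 4 mice were counted with 10x Genomics 3′ chemistry, 1 library per mouse. The authors made the deposited counts (UMIs per gene and cell, not normalized) with Cell Ranger 6.0.1 on GRCm38 and a modified Ensembl annotation, and they deposited a table with the mouse and the type of 15859 retained cells out of 21809 barcodes. All retained cells had 1000 or more genes and at most 10% mitochondrial UMIs. The deposited matrices and the merged count table gave the same UMIs for the 9 genes in every cell. Barcodes shared between mice numbered 4 to 14 per pair, with none in HBC1, HBC2 or Sus.

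The genes, the gene lists and the tests were chosen with earlier results of these data known. UMIs were summed per mouse and type and given per 10000. Sums of HBC1, HBC2 and Sus (12 in all) were fitted in edgeR 4.0.16 (quasi-likelihood, TMM scaling, filterByExpr, mouse as block, Benjamini-Hochberg adjustment, threshold 0.05), with DESeq2 1.42.0 as an alternative. The block was used because the sums of a mouse come from the same animal and library. For shares of cells, each cell was thinned to 2000 UMIs, which left out 9 HBC1, 13 HBC2 and 4 Sus cells. Intervals are exact binomial (Clopper-Pearson, 95%), and the limit for a count of 0 is 3 counts. Likeness used log2 levels with a pseudocount of 0.1 and genes at 0.5 or more in at least 1 type.

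Named genes were the 9 genes, other keratins at 1 or more UMI per 10000, up to 4 genes per list with the largest called differences, the 3 genes most alike to each member, and the 5 largest called each way in the class comparison. For doublets, the study's methods state a filter on mature OSNs with several olfactory receptors, applied after these types were drawn, and name none for the other types. Scrublet in Scanpy 1.11.5 called 7 to 47 barcodes per mouse (0.123 to 0.783%), so the highest 4% of scores were left out as an alternative. On simulated counts for HBC1 against HBC2 (7481 genes), 42% of 200 genes changed by 2-fold were called, with 1 false call. The simulation gave all genes the same dispersion, added no mouse effect and drew the changed genes from those with higher counts. Other genes had equal means in all types, so these values do not give the sensitivity or error of the real comparison. Alternatives also covered filters, the block, depth of thinning, all 10 types in the fit and each mouse left out. The result of 1 listed gene is not reported here.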

Additional observations from a re-analysis of the deposited data

Results flagged for a closer look

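The share of HBC1 cells with Krt5 and no Krt8 or Krt18 was 32.1% in mouse 2 (28 cells), against 15.1, 15.7 and 16.3% in mice 1, 3 and 4, and this sample lay far from the others. Of 32 groups of 4 mice examined in this way, chance would single out about 1 in 20.

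Barcodes that the annotation gives no type carried each of the 9 genes above the level in mature OSNs. Their mean levels were 0.178 for Krt5, 0.184 for Krt14, 0.125 for Krt15, 0.266 for Krt17, 1.45 for Krt8, 2.66 for Krt18, 0.476 for Krt7, 0.127 for Krt19 and 0.0935 UMIs per 10000 for Trp63. These barcodes entered no comparison.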

How the results depend on the processing

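Of 964 alternative values, 909 kept their direction and side of the threshold or moved by less than the spread between mice. Counts of genes called were taken as unchanged when they stayed within 1.5-fold. Of the 41 values that moved, 28 were levels, 7 were joint shares and 6 were counts of genes called. The joint share of Krt5 with Krt8 or Krt18 moved to 93.3% in HBC1 and 70.5% in HBC2 with all UMIs, 92.2% and 68.5% at 4000 UMIs, and 44.8% and 29.1% when 2 UMIs of each gene were required. Without the cells high in Cyp2g1 (chosen after seeing the data) it was 70.5% in HBC2. Krt18 in Sus was 48.9 without the highest Scrublet scores. Genes called between the HBC2 classes numbered 22, but 55 without a filter on low counts, 0 with cells classed on all UMIs (257 at an unadjusted p under 0.05 in edgeR), 4 (all higher) without the highest Scrublet scores, and 2 to 76 with a mouse left out (76 without mouse 1, 35 without mouse 2, 2 without mouse 3). The form classed on all UMIs held only 7 cells with Krt5 alone, and none in mouse 3. Without the replicate block the genes called between the HBC2 classes numbered 15, and 1715 genes were called between HBC1 and HBC2. The block, which pairs sums of the same animal, changed no call of a member.

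Differences that turned sign were those that had not passed. With a mouse left out, Krt19 between HBC1 and HBC2 ranged from −0.28 to 0.020 (the latter without mouse 1). Between the HBC2 classes, Krt15 was −0.19 without the block, −0.086 with cells classed on all UMIs (7 cells with Krt5 alone), and ranged from −0.030 (without mouse 3) to 0.68 with a mouse left out. Krt14 was −0.069 without the highest Scrublet scores and ranged from −0.15 (without mouse 4; −0.13 without mouse 2) to 0.48, and Krt7 from −0.24 (without mouse 1) to 0.65. The cause was not tested. Krt7 between HBC1 and HBC2 passed with no filter on low counts (−0.63, edgeR adjusted p = 0.0180) and without mouse 2 (−0.66, edgeR adjusted p = 0.0271). Krt15 between them ranged from −3.48 to −1.88 with a mouse left out (−1.88 without mouse 1). The small HBC2 class (38 cells) and HBC1 in mouse 2 (29 cells) limit what these depths can show.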
